A study of Danio rerio with 15 samples.

Results

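The cyp2aa genes are a fish-specific subfamily of the cytochrome P450 family 2 (CYP2) enzymes. They were taken here by gene symbol: each of the 10 symbols cyp2aa1, cyp2aa2, cyp2aa3, cyp2aa4, cyp2aa6, cyp2aa7, cyp2aa8, cyp2aa9, cyp2aa11 and cyp2aa12 was found once among the 32520 genes of the deposited table, and 0 other genes had a symbol starting with cyp2aa. All 10 also passed the filter on low counts that left 21477 genes for testing. The members were chosen by symbol with their read counts in all 5 dose groups already known. Their levels, fold changes and standard errors (SE) are therefore a description and carry no test.

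The libraries were RNA-seq of whole zebrafish larvae of the AB wild-type strain at 120 hours post-fertilization (hpf). Control larvae were compared with larvae given PFOS (perfluorooctanesulfonic acid, a fluorinated surfactant that persists in the environment) at 0.1, 1, 5 or 10 µM, and each of the 5 groups had 3 libraries. The series concerns the developmental neurotoxicity of PFOS. The labels name no transgene or mutation in any group, state neither when exposure began nor whether a solvent was given to the controls, and do not say whether libraries within a group are from different clutches. The p-values therefore measure only how much these libraries vary, which may be technical. The 10 µM libraries are named by the numbers 2, 3 and 4 that their columns carry.

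Cytochrome P450 enzymes hold a haem group with which they insert oxygen into lipophilic substrates, using electrons delivered by P450 oxidoreductase and, for some reactions, cytochrome b5. CYP2 enzymes of vertebrates sit in the membrane of the endoplasmic reticulum, are abundant in liver, gut and kidney, and oxidise foreign chemicals as well as fatty acids and steroids. The subfamily has expanded in fish by tandem gene duplication, and the substrates of most single members are not settled, so the members are taken here in the order of their levels and of the difference at the highest dose.

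The libraries held 11956657 to 19978125 estimated counts each, of which the 10 members held 773 to 2206 counts per library. No pair of libraries held identical values. From edgeR's common dispersion, the coefficient of variation between libraries of a group, beyond counting noise, was about 13.0% over all tested genes. Some members, such as cyp2aa8, varied more, as given below. No batch or date is given in the labels, so a batch and a dose cannot be told apart. The labelled tissue, the whole body, was set beside markers of 5 cell types (hepatocytes, enterocytes, pronephros, exocrine pancreas and neurons). No marker found among the genes, before any filter, was at 0 throughout any group. That shows only that RNA of these genes was present and cannot verify the label.

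All 10 genes lay on the plus strand of chromosome 23, from the start of cyp2aa12 at chr23:42292748 to the end of cyp2aa3, a cluster spanning chr23:42292748-42493876 or 201 kb in the coordinates of the deposited file (their build: not given in the sources used here). Along the chromosome the order was cyp2aa12, cyp2aa6, cyp2aa7, cyp2aa11, cyp2aa4, cyp2aa8, cyp2aa9, cyp2aa1, cyp2aa2 and cyp2aa3, and the RefSeq gene table for GRCz12tu gave the same order. The deposited file places the start of cyp2aa8 further upstream, at 42336142, because of its transcript cyp2aa8-201, which starts within cyp2aa7 and spans cyp2aa11 and cyp2aa4. The other transcript, cyp2aa8-202, occupies chr23:42396934-42405705, between cyp2aa4 and cyp2aa9. The deposited file lists 9 of the members as protein coding and cyp2aa6 as an unprocessed pseudogene, whereas the RefSeq table lists cyp2aa6 as protein coding too. Since tandem copies can be alike in sequence, reads may have been divided between members in a way that cannot be checked from the deposited counts. Use of strand in the counting was likewise not stated.

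In control larvae, members differed widely in level per length. On the scale of the deposited RPKM (reads scaled to length and to the library total), cyp2aa8 had the highest control level at 29.9 ± 11.5 RPKM (SD, n = 3). It was followed by cyp2aa1 at 15.6 ± 1.83, cyp2aa4 at 10.8 ± 2.30 and cyp2aa7 at 9.02 ± 3.51 RPKM. The next control levels were those of cyp2aa6 at 6.55 ± 0.763, cyp2aa12 at 5.75 ± 0.819 and cyp2aa9 at 5.21 ± 2.01 RPKM. The lowest control levels were those of cyp2aa3 at 2.99 ± 0.702, cyp2aa11 at 2.73 ± 0.651 and cyp2aa2 at 2.15 ± 0.249 RPKM. Among neighbours in this order, only cyp2aa8 and cyp2aa1, and cyp2aa1 and cyp2aa4, had control libraries that did not overlap. At 5 µM the order began in the same way, with cyp2aa8 at 18.3 ± 11.5 RPKM and cyp2aa1 at 15.9 ± 1.29 RPKM, but the libraries of these members overlapped there. RPKM of the 10 µM libraries was not used here.

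Levels are given from here on as CPM, counts scaled to the library total after TMM adjustment, and differences as log2 fold changes of the first group named minus the second. In whole larvae, fewer cells of a type and less RNA per cell cannot be told apart. The level of cyp2aa8 was 44.7, 26.5 and 59.13 CPM in the 3 control libraries, 13.7, 33.0 and 43.0 CPM at 0.1 µM and 22.6, 45.6 and 29.4 CPM at 1 µM. At 5 µM it was 32.3, 40.7 and 8.03 CPM, and at 10 µM 1.21, 2.50 and 1.83 CPM. The 3 libraries at 10 µM lay far below every other library, while the ranges of the 4 lower groups overlapped. Behind the 10 µM values stood 15, 32 and 24 counts, against 588, 396 and 810 counts in the controls. The log2 fold change of cyp2aa8 at 10 µM was -4.54 (SE 0.64) against control, a 23.3-fold lower level, and -3.85 (SE 0.65) against 5 µM. Over the 5 groups its mean level was ordered control at 43.4 ± 16.4, 1 µM at 32.5 ± 11.8, 0.1 µM at 29.9 ± 14.9, 5 µM at 27.0 ± 16.99 and 10 µM at 1.85 ± 0.648 CPM, and of neighbours in this order only the 5 and 10 µM groups had libraries that did not overlap.

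**Figure D1:**
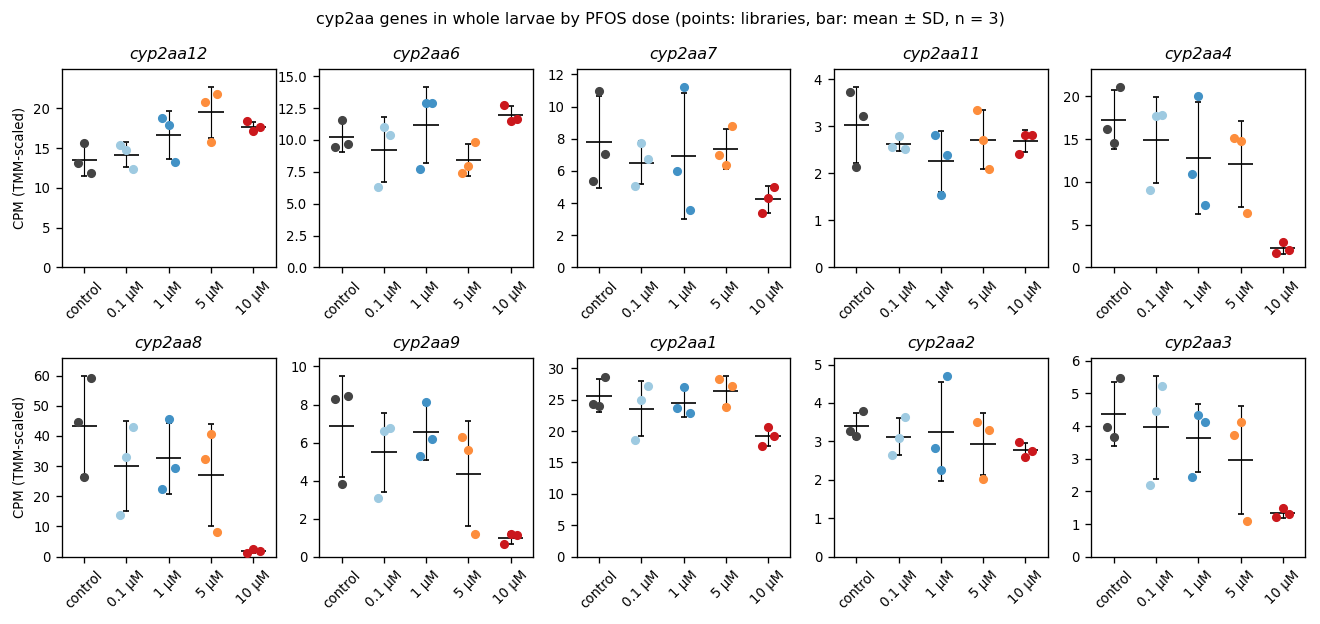
Level of each cyp2aa gene in CPM (y axis, from 0, a separate scale per gene) in each library by PFOS dose (x axis), with points for libraries and bars for the mean ± SD of 3 libraries. The 10 µM libraries of cyp2aa8 lay between 1.21 and 2.50 CPM and the control libraries between 26.5 and 59.13 CPM, while cyp2aa12 was between 17.1 and 18.4 CPM at 10 µM and between 11.8 and 15.7 CPM in controls.

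The next largest differences were those of cyp2aa4 and cyp2aa9, the genes on either side of cyp2aa8. The level of cyp2aa4 was 16.1, 14.5 and 21.1 CPM in controls and 1.69, 2.97 and 2.06 CPM at 10 µM. The 2 groups were well apart, and the log2 fold change was -2.94 (SE 0.43), a 7.65-fold lower level. Between them, cyp2aa4 was at 9.06, 17.7 and 17.8 CPM at 0.1 µM, at 10.9, 20.1 and 7.34 CPM at 1 µM and at 15.2, 14.8 and 6.34 CPM at 5 µM. These 3 groups overlapped the controls, though each held a library below the lowest control.

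The level of cyp2aa9 was 8.29, 3.81 and 8.47 CPM in controls and 0.644, 1.17 and 1.14 CPM at 10 µM, on 8, 15 and 15 counts. Control and 10 µM libraries did not overlap, and the log2 fold change was -2.77 (SE 0.54), a 6.84-fold lower level. At the doses between, cyp2aa9 was at 3.10, 6.60 and 6.77 CPM (0.1 µM), 5.27, 8.13 and 6.18 CPM (1 µM) and 6.32, 5.59 and 1.21 CPM (5 µM). The last 5 µM library was just above the highest 10 µM library.

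At the downstream end of the cluster, cyp2aa3 was at 3.96, 3.67 and 5.48 CPM in controls and at 1.21, 1.49 and 1.297 CPM at 10 µM. These groups did not overlap, and the log2 fold change was -1.71 (SE 0.43), a 3.26-fold lower level. The 5 µM libraries of cyp2aa3 held 3.72, 4.11 and 1.079 CPM, so that one of them was below all 10 µM libraries. The levels of cyp2aa3 at 0.1 µM (2.20, 4.45 and 5.23 CPM) and at 1 µM (2.45, 4.34 and 4.12 CPM) overlapped the controls.

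The remaining members differed less. The level of cyp2aa7 was 5.40, 10.96 and 7.08 CPM in controls and 3.38, 4.30 and 5.03 CPM at 10 µM, with a log2 fold change of -0.88 (SE 0.34), which was -0.56 without control 2. The highest 10 µM library lay only just below the lowest control library. The level of cyp2aa1 was 24.3, 23.9 and 28.6 CPM in controls and 17.6, 20.7 and 19.1 CPM at 10 µM, with a log2 fold change of -0.42 (SE 0.13) and no overlap. For cyp2aa2, controls held 3.27, 3.14 and 3.80 CPM and the 10 µM libraries 2.98, 2.58 and 2.75 CPM, with a log2 fold change of -0.30 (SE 0.26). The 2 groups of cyp2aa2 did not overlap either, but the difference was about as large as its SE.

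The 2 genes at the upstream end were not lower at 10 µM. The level of cyp2aa12 was 13.1, 15.7 and 11.8 CPM in controls, 20.8, 15.8 and 21.9 CPM at 5 µM and 18.4, 17.1 and 17.7 CPM at 10 µM. All libraries of both doses were above the controls, with log2 fold changes of 0.53 (SE 0.15) at 5 µM and 0.39 (SE 0.15) at 10 µM. At 0.1 and 1 µM the log2 fold changes of cyp2aa12 were 0.07 (SE 0.15) and 0.30 (SE 0.15), and libraries overlapped the controls. The level of cyp2aa6 was 9.43, 11.6 and 9.71 CPM in controls and 12.7, 11.5 and 11.7 CPM at 10 µM, with a log2 fold change of 0.22 (SE 0.21) and overlapping libraries. At 5, 1 and 0.1 µM the log2 fold changes of cyp2aa6 were -0.28, 0.12 and -0.16 (SE 0.21 each), and libraries overlapped the controls. For cyp2aa11, with 3.73, 2.14 and 3.21 CPM in controls and 2.42, 2.82 and 2.82 CPM at 10 µM, libraries overlapped and the log2 fold change was -0.16 (SE 0.25).

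**Figure D2:**
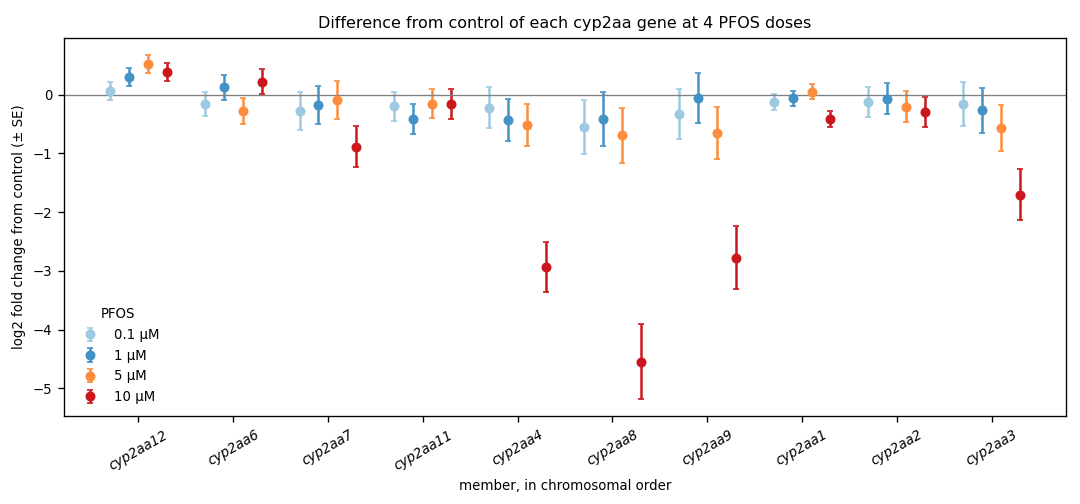
Log2 fold change from control (y axis, with bars of 1 SE) of each cyp2aa gene in chromosomal order (x axis) at 4 PFOS doses (colours). At 10 µM the values ran from -4.54 for cyp2aa8 to 0.39 for cyp2aa12, and at the lower doses from -0.69 for cyp2aa8 to 0.53 for cyp2aa12, both at 5 µM.

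Over all tested genes, edgeR's quasi-likelihood test with Benjamini-Hochberg adjustment placed 14.4% past the threshold of 0.05 at 10 µM against control. In that comparison 5 of the 10 members (cyp2aa8, cyp2aa4, cyp2aa9, cyp2aa3 and cyp2aa1) were past it with a lower level, beside 6.65% of the tested genes, and 0 with a higher level, beside 7.78%. By libraries that did not overlap, 7 of 10 members were lower at 10 µM, beside 18.3% of tested genes, and 1 (cyp2aa12) was higher, beside 18.6%. The median log2 fold change of the 10 members was -0.65, against -0.01 for all tested genes. Because these counts were known when the family was chosen, nothing is read from them. The call of cyp2aa1 was lost on leaving out any of the 6 libraries compared, and that of cyp2aa3 without control 3 or without the 10 µM library 2 or 4. Those of cyp2aa8, cyp2aa4 and cyp2aa9 were kept in all 12 alternative settings. Calls were also gained: in 1 setting each, cyp2aa7 passed with a lower level and cyp2aa12 with a higher level.

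Against 5 µM, the 10 µM log2 fold changes were -3.85 for cyp2aa8, -2.42 (SE 0.44) for cyp2aa4, -2.12 (SE 0.56) for cyp2aa9 and -1.14 (SE 0.45) for cyp2aa3. In this comparison 4 members (cyp2aa8, cyp2aa4, cyp2aa9 and cyp2aa1) were past the threshold with a lower level at 10 µM, beside 7.34% of tested genes, and 0 with a higher level, beside 8.06%. By overlap of libraries, 5 members were lower, beside 15.3%, and cyp2aa6 alone was higher, beside 16.8%, at 7.43, 7.99 and 9.85 CPM at 5 µM. The calls of cyp2aa8 and cyp2aa4 were kept in all 12 alternative settings, and those of cyp2aa9 and cyp2aa1 in 8 each. In 1 setting each, cyp2aa7 and cyp2aa3 also passed with a lower level, cyp2aa3 without PFOS 5 µM replicate 3. The call of cyp2aa9 was lost without PFOS 5 µM replicate 1 or 2 or without the 10 µM library 2 or 4, and that of cyp2aa1 without PFOS 5 µM replicate 1 or 3 or the 10 µM library 2 or 4. Both comparisons share the 10 µM libraries.

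At 5, 1 and 0.1 µM against control, 0 members passed the threshold, beside 0% of tested genes at each dose. At an unadjusted p below 0.05 the test called 837 genes (3.9%) at 5 µM, 422 (1.96%) at 1 µM and 243 (1.13%) at 0.1 µM. Of the 10 members, 1 (cyp2aa12) was among those at 5 µM and 0 at 1 or 0.1 µM. With DESeq2, 12 genes passed after adjustment at 5 µM. The medians over the 10 members were -0.24 at 5 µM, -0.12 at 1 µM and -0.18 at 0.1 µM, where those over all tested genes were -0.01, 0.00 and 0.00. At 5 µM, 1 member (cyp2aa12) had libraries that were all above the controls, beside 3.41% of tested genes, and 0 had libraries all below, beside 3.74%. At 1 µM 0 members were wholly below the controls, beside 3.46%, and 0 wholly above, beside 3.27%, and at 0.1 µM 0 were below, beside 2.85%, and 0 above, beside 2.63%. Because same-numbered libraries deviated together at these 2 doses, the members were also compared within same-numbered pairs, a comparison added after the data were seen. At 1 µM cyp2aa12 was higher than control in all 3 pairs, beside 11.1% of tested genes, and cyp2aa11 lower in all 3, beside 11.3%. At 0.1 µM cyp2aa7 and cyp2aa2 were lower in all 3 pairs, beside 12.3%, and 0 members higher, beside 12.2%. With the replicate number as a block, the 1 µM log2 fold changes were 0.30 (SE 0.16) for cyp2aa12 and -0.42 (SE 0.25) for cyp2aa11, and neither passed the threshold. The log2 fold changes of cyp2aa8 were -0.69 (SE 0.47) at 5 µM, -0.42 (SE 0.46) at 1 µM and -0.55 (SE 0.46) at 0.1 µM. All 3 differences of cyp2aa8 were under the spread between its libraries, and the 3 comparisons share their controls.

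A library of the 5 µM group, PFOS 5 µM replicate 3, stood apart over the genes in general and in part of the family. The chi-square per gene, a measure of difference beyond depth, was taken over genes with at least 20 counts in a pair of libraries. Between this library and replicates 1 and 2 of its group it was 26.6 and 21.6. The other pairs of libraries within a group had at most 14.2. In PFOS 5 µM replicate 3, cyp2aa9 was at 20.4%, cyp2aa8 at 21.97%, cyp2aa3 at 27.6% and cyp2aa4 at 42.3% of the mean of the other 2 libraries of that dose. In the same library cyp2aa11 was at 69.0%, and the other 5 members at 105% (cyp2aa1) to 131% (cyp2aa7) of that mean. The low members were thus the same 4 that had the largest differences at 10 µM. The summed level of 25 exocrine pancreas markers in that library was 5069.5 CPM, against 16981 and 23820 CPM in the other 2, and that of 31 hepatocyte markers was 6641.6 CPM, against 10464 and 10661 CPM. Its neuronal marker sum was 4068.5 CPM, against 3256 and 3444 CPM. Whether these differences between the libraries have a part in the values of the cyp2aa genes was not tested.

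Without that library, the log2 fold changes at 5 µM against control were -0.25 for cyp2aa8, -0.20 for cyp2aa4, -0.19 for cyp2aa9 and -0.16 for cyp2aa3, where they had been -0.69, -0.52, -0.66 and -0.57 with it. The differences of 10 µM from 5 µM without it were -4.29 for cyp2aa8, -2.74 for cyp2aa4, -2.58 for cyp2aa9 and -1.55 for cyp2aa3. The 10 µM differences were thus as large or larger without that library. In PFOS 0.1 µM replicate 1, the deepest library, more of the family was low: cyp2aa8 was at 36.0%, cyp2aa3 at 45.5%, cyp2aa9 at 46.5% and cyp2aa4 at 51.0% of the mean of the other 2, and so were cyp2aa6 at 58.9%, cyp2aa7 at 69.7%, cyp2aa1 at 71.6% and cyp2aa2 at 79.1%. There cyp2aa11 was at 96.0% and cyp2aa12 at 113%. Without that library the log2 fold change of cyp2aa8 at 0.1 µM was -0.19. Its exocrine pancreas sum of 17118 CPM was the highest of its group. Its hepatocyte sum of 8908.1 CPM was the lowest, against 10457 and 9573.1 CPM in the other 2. Whether these sums have a part in its cyp2aa values was not tested.

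**Figure D3:**
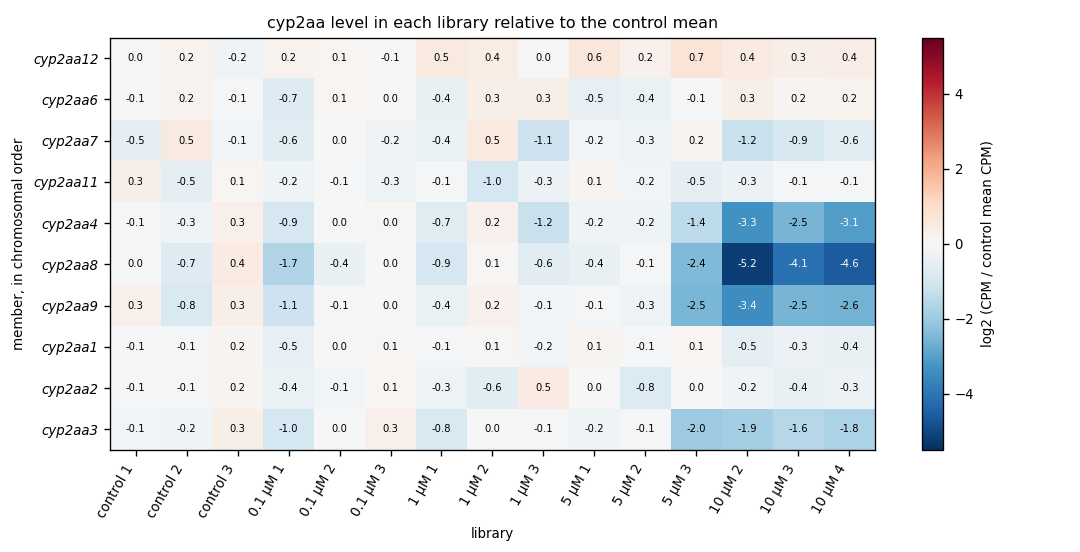
Log2 ratio of each library's CPM to the control mean CPM (colour and printed value) for the cyp2aa genes in chromosomal order (rows) in each of the 15 libraries (columns). The cells of cyp2aa4, cyp2aa8, cyp2aa9 and cyp2aa3 are low in all 3 libraries at 10 µM and in PFOS 5 µM replicate 3, where cyp2aa9 was at 20.4% of the mean of the other 2 libraries.

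Over the 15 libraries, log2 CPM of cyp2aa8 had a Pearson correlation of 0.973 with cyp2aa4, 0.965 with cyp2aa9 and 0.914 with cyp2aa3. After the mean of each dose group was removed, the values were 0.873, 0.958 and 0.949. These points share library depth, scaling and, before removal, dose. For cyp2aa1 the correlation with cyp2aa8 was 0.763 before and 0.515 after removal of the group means, for cyp2aa7 0.533 and 0.041, and for cyp2aa12 -0.485 and -0.591. Pooled over the dose groups, the members with the largest differences at 10 µM thus also moved with cyp2aa8 between libraries of the same dose. By the same measure cyp2aa12 moved the other way. Values for single doses are not given here, nor are values without PFOS 5 µM replicate 3. In that library cyp2aa8, cyp2aa4, cyp2aa9 and cyp2aa3 were low together.

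The summed level of the family does not depend on how reads were divided between its members. It was 132.3, 115.8 and 158.4 CPM in controls and 62.3, 67.2 and 65.4 CPM at 10 µM, and these groups did not overlap. The log2 fold change of the sum was -1.06 (SE 0.20) against control and -0.81 (SE 0.20) against 5 µM. At the lower doses the sum was at 78.6, 126.1 and 135.7 CPM (0.1 µM), 103.1, 151.1 and 106.7 CPM (1 µM) and 127.9, 124.0 and 89.8 CPM (5 µM). These 3 groups overlapped the controls, with log2 fold changes of -0.26, -0.17 and -0.25 (SE 0.19 each). On leaving out 1 library these ran from -0.41 to -0.05 at 0.1 µM (the smallest without PFOS 0.1 µM replicate 1), from -0.37 to -0.04 at 1 µM (the smallest without control 3) and from -0.35 to -0.10 at 5 µM (the smallest without PFOS 5 µM replicate 3).

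Of the 70.5 CPM by which the mean sum at 10 µM was below that of controls, cyp2aa8 made up 59.0%, cyp2aa4 21.3%, cyp2aa1 9.11%, cyp2aa9 8.32%, cyp2aa7 5.06% and cyp2aa3 4.31%. The contributions of cyp2aa12 and cyp2aa6, which were higher at 10 µM, were -5.95% and -2.46%. The 4 members cyp2aa3, cyp2aa4, cyp2aa8 and cyp2aa9, grouped after their values were seen, summed to 71.9 ± 22.9 CPM in controls and 6.41 ± 1.69 CPM at 10 µM. The other 6 summed to 63.6 ± 4.15 CPM in controls, 59.3 ± 7.56 at 0.1 µM, 64.8 ± 7.15 at 1 µM, 67.4 ± 7.63 at 5 µM and 58.6 ± 0.906 CPM at 10 µM. Most of the spread of the family sum among controls also lay in the 4, which ran from 48.4 to 94.2 CPM, while the other 6 ran from 59.18 to 67.4 CPM.

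The make-up of the family's RNA differed accordingly. The share of family counts held by cyp2aa8 was 33.8, 22.8 and 37.3% in controls and 1.94, 3.73 and 2.80% at 10 µM. That of cyp2aa12 was 9.89, 13.6 and 7.47% in controls and 29.5, 25.5 and 27.0% at 10 µM. The cyp2aa1 share was 18.3, 20.6 and 18.1% in controls and 28.3, 30.9 and 29.3% at 10 µM. These shares sum to 100% in each library, so a higher share of cyp2aa1 stood beside a lower level.

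**Figure D4:**
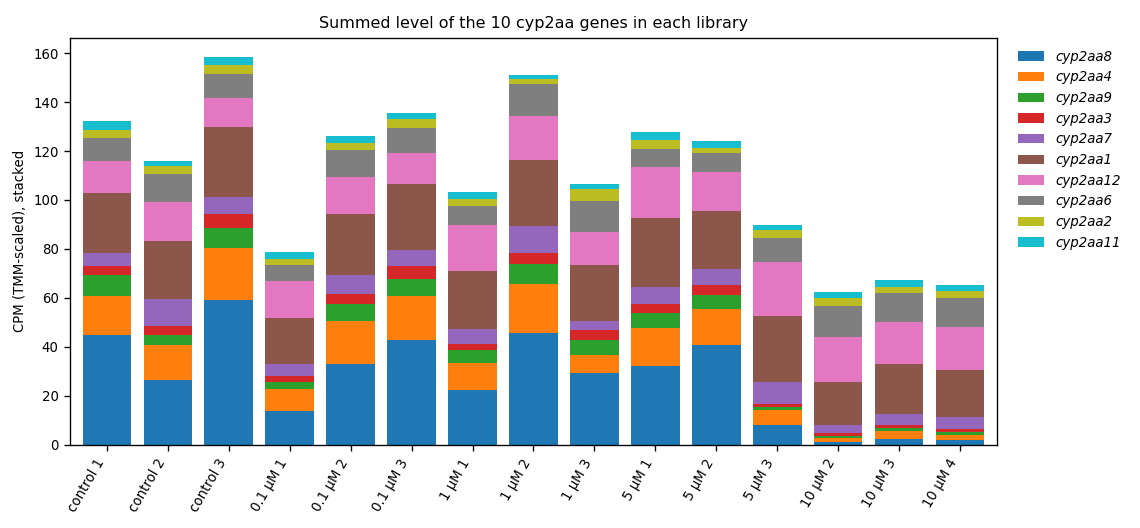
Summed CPM of the 10 cyp2aa genes (y axis, from 0) in each of the 15 libraries (x axis), stacked by gene. The sum ran from 115.8 to 158.4 CPM in controls and from 62.3 to 67.2 CPM at 10 µM, with the smaller height at 10 µM lying mainly in cyp2aa8 and cyp2aa4.

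The transcript table held 15 transcripts of the members, 1 for each of 6 members and several for the other 4. The upstream-starting transcript cyp2aa8-201 held 4.59, 4.55 and 4.81% of the counts of cyp2aa8 in controls and 3.30 to 5.26% at 0.1, 1 and 5 µM. At 10 µM it held 2, 0 and 0 counts, and cyp2aa8-202 held 14, 32 and 24 counts. Nearly all counts of cyp2aa8 thus came from the transcript lying between cyp2aa4 and cyp2aa9. For cyp2aa12, the transcript cyp2aa12-203 had 0 counts in all controls and at 0.1 and 1 µM, 25 counts in PFOS 5 µM replicate 3 and 36, 0 and 114 counts in the 10 µM libraries. In the 10 µM library 4 these were 49.1% of the gene's counts, and in library 3 none. The 10 µM libraries thus differed more from each other in the split between transcripts of cyp2aa12 than in its total.

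Around the cluster, 14 further genes lay within 250 kb of its outermost members or between them, and 6 of these were tested. Of all tested genes, 14.4% were past the threshold at 10 µM. A single one was past the threshold at 10 µM: FO904880.1, a protein-coding gene at chr23:42690904-42721150 that the file describes as a P450 2J6-like gene, fell from 7.99, 5.34 and 3.87 CPM in controls to 1.93, 0.939 and 1.53 CPM. The difference was -1.96 on the log2 scale (SE 0.41; edgeR adjusted p = 0.00653), and it was past the threshold in all 11 alternative settings. At the lower doses the log2 fold changes of FO904880.1 were -0.12 (5 µM), 0.11 (1 µM) and -0.13 (0.1 µM), with adjusted p of 0.999, 1 and 1. Between it and the cluster lay cyp2ae1, another P450 gene, which differed by 0.12 on that scale (SE 0.27, adjusted p = 0.812). The other tested neighbours were gpx7, a glutathione peroxidase of the endoplasmic reticulum, at -0.52 (SE 0.27, adjusted p = 0.217), tut4, a terminal uridylyltransferase, at 0.54 (SE 0.33, adjusted p = 0.296), CT997819.5 at 0.49 (SE 0.22, adjusted p = 0.15) and CABZ01065131.1 at 0.05 (SE 0.12, adjusted p = 0.818). An antisense gene that overlaps cyp2aa9, cyp2aa1 and the start of cyp2aa2, CU013526.1, had 0 counts in every library.

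Other P450 genes were counted in the same comparison, in which 7.78% of all tested genes rose past the threshold and 6.65% fell. Of 30 other tested CYP2 genes with a CYP2 symbol, 3 rose and 0 fell at 10 µM, with a median log2 fold change of 0.06. The P450 2J6-like gene FO904880.1, at -1.96, has no such symbol and was not counted among the 30. The gene cyp2x12 rose from 0.843 ± 0.355 to 3.92 ± 0.852 CPM (log2 fold change 2.21, SE 0.43, adjusted p = 0.00454). Of the 2 genes that share the symbol cyp2k6, only the first was tested. It rose by 2.42 (SE 0.50, adjusted p = 0.00636) and cyp2k18 by 1.27 (SE 0.27, adjusted p = 0.0066) on the log2 scale. The fourth in order of p, cyp2k8, missed the threshold at 0.59 (SE 0.20, adjusted p = 0.0573), but passed it in 3 of 11 alternative settings. The summed level of these 30 genes was 601.7 to 638.9 CPM in controls and 547.3 to 653.4 CPM at 10 µM. At that dose their sum thus overlapped the controls where that of the cyp2aa genes did not. At 5 µM the sum of the 30 genes was 720.4 to 788.15 CPM, wholly above the controls.

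Of 29 other tested P450 genes outside CYP2, 4 rose and 4 fell, beside 7.78% and 6.65% of all tested genes, with a median of 0.14. This list held no gene of the P450 families whose 2-digit number starts with 2. Its counts therefore do not cover all P450 genes outside CYP2. The gene cyp4v8, of a fatty acid hydroxylase subfamily, fell by 1.11 (SE 0.14, adjusted p = 0.000394), while its relative cyp4v7 rose by 0.81 (SE 0.14, adjusted p = 0.00267). The oxysterol 7-hydroxylase cyp7b1 fell by 0.55 (SE 0.12, adjusted p = 0.00756) and the steroidogenic cyp17a1 fell by 0.86 (SE 0.20, adjusted p = 0.0123), but each lost its call on leaving out 1 library, the 10 µM library 2 for cyp7b1 and control 1 for cyp17a1. The dioxin-responsive cyp1a was at -0.09 (SE 0.09, adjusted p = 0.553) and cyp3a65, a drug-metabolising enzyme of larval gut and liver, at 0.05 (SE 0.19, adjusted p = 0.881). Neither difference passed the threshold in any of the 11 alternative settings.

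**Figure D5:**
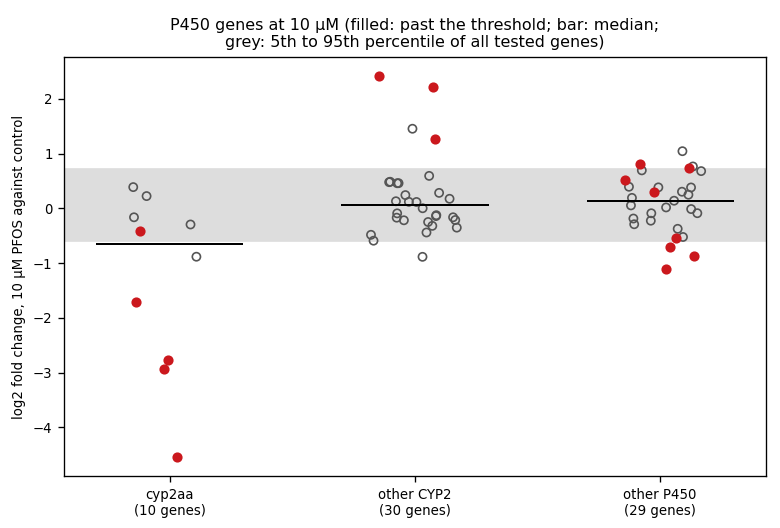
Log2 fold change at 10 µM PFOS against control (y axis) of the 10 cyp2aa genes, 30 other tested CYP2 genes and 29 other tested P450 genes (x axis), with filled points past the adjusted p threshold, bars for medians and grey for the 5th to 95th percentile of all tested genes. The medians were -0.65, 0.06 and 0.14, and the 4 lowest points are cyp2aa8, cyp2aa4, cyp2aa9 and cyp2aa3. The 29 genes do not cover all P450 families outside CYP2. Genes were taken by symbol, so the P450 2J6-like gene FO904880.1 is not shown. Its value of -1.96 was lower than that of cyp2aa3 at -1.71.

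Of 23 tested genes of the enzymes that supply P450s with electrons and haem, 4 rose and 1 fell at 10 µM, where 7.78% of all tested genes rose and 6.65% fell, with a median of 0.05. Both zebrafish genes of P450 oxidoreductase rose, porb from 147.2 ± 30.7 to 245.4 ± 11.3 CPM (0.74, SE 0.15, adjusted p = 0.00639) and pora by 0.49 (SE 0.09, adjusted p = 0.00391). The cytochrome b5 gene cyb5b, whose mammalian counterpart sits on mitochondria, rose by 0.90 (SE 0.15, adjusted p = 0.00169) and ppox, a gene of haem synthesis, by 0.73 (SE 0.16, adjusted p = 0.00726). Of 60 tested genes of conjugating enzymes (UDP-glucuronosyltransferases, sulfotransferases and glutathione transferases), 8 rose and 6 fell, with a median of -0.06. In that list ugt5a2 rose by 1.54 (SE 0.30, adjusted p = 0.0045) and ugt5a1 by 1.21 (SE 0.23, adjusted p = 0.0043), while gstr fell by 0.67 (SE 0.10, adjusted p = 0.00146) and ugt1b2 fell by 0.74 (SE 0.14, adjusted p = 0.00485).

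Among 43 tested nuclear receptors and liver transcription factors, 5 rose and 3 fell, beside 7.78% and 6.65% of all tested genes, with a median of 0.02. The vitamin D receptor gene vdrb rose by 0.99 (SE 0.17, adjusted p = 0.0023) and pparda by 0.71 (SE 0.16, adjusted p = 0.00982). The fatty acid sensor pparaa fell by 0.45 (SE 0.12, adjusted p = 0.0174) and the shared receptor partner rxraa fell by 0.44 (SE 0.12, adjusted p = 0.0255), and these calls were kept in 8 and 6 of the 11 alternative settings. The pregnane X receptor nr1i2, a xenobiotic sensor that controls CYP2 and CYP3 genes in mammals, was at 0.58 (SE 0.20, adjusted p = 0.0581), and hnf4a, a factor of liver and gut, at -0.04 (SE 0.10, adjusted p = 0.848). In the 11 alternative settings nr1i2 passed the threshold in 2 and hnf4a in 0.

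Markers of organs in which CYP2 enzymes are abundant, and of exocrine pancreas and neurons, were compared at the same dose. There, 7.78% of all tested genes rose and 6.65% fell. Of 31 hepatocyte markers 7 rose and 0 fell, with a median of 0.16, and their summed level was 9136.6 to 10007 CPM in controls and 10735 to 11018 CPM at 10 µM. Among them fabp10a, a fatty acid carrier of liver, rose by 0.65 (SE 0.15, adjusted p = 0.0105), though not without control 3. Of 29 enterocyte markers 2 rose and 4 fell, with a median of -0.12 and sums of 4186.5 to 4678.6 CPM in controls and 4044.6 to 4394.4 CPM at 10 µM. Of 26 pronephros markers 2 rose and 1 fell, with a median of 0.00 and sums of 988.7 to 1218 CPM and 1018 to 1026 CPM. Of 25 exocrine pancreas markers 0 rose and 1 fell, with a median of -0.17 and sums of 13460 to 19426 CPM and 14011 to 15460 CPM. Of 19 neuronal markers 0 rose and 5 fell, with a median of -0.18 and sums of 3225 to 3448 CPM and 2698 to 2869 CPM. The part of these differences in the levels of the cyp2aa genes was not tested. At 5, 1 and 0.1 µM, 0 genes of any of these lists passed the threshold, where 0% of all tested genes did.

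The genes whose pattern was most like that of the family were sought among 16497 tested genes with a mean of at least 1 CPM and a symbol not named for a clone. Likeness was the Pearson correlation, over the 15 libraries, of log2 CPM with the mean standardised profile of the 10 members. The highest values were 0.957 for aldh9a1a.1, an aldehyde dehydrogenase gene, 0.932 for apoda.1, an apolipoprotein D gene, 0.922 for cat, which encodes catalase, and 0.920 for ndnf. They were followed by qser1 at 0.919, uacab at 0.915, smarca1 at 0.912, pdcd4a at 0.909, spty2d1 at 0.908 and ccdc80l2 at 0.907. The differences of these genes at 10 µM were smaller than those of cyp2aa8, with log2 fold changes of -0.57 (SE 0.13) for aldh9a1a.1, from 676.6 ± 17.1 to 457.3 ± 34.8 CPM, and -0.94 (SE 0.18) for apoda.1. With the group means removed, aldh9a1a.1 had a correlation of 0.958 and apoda.1 of 0.792. The list depended on the measure: 2 of the 10 genes were among the first 10 by Spearman's rho, and 1 of them after removal of the group means.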

How the data were processed

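Whole numbers deposited by the authors as read counts per gene and per transcript, per the file headers, were treated as estimated counts, since the transcripts of a gene add up to its value only within rounding. RPKM values deposited by the authors, per the file headers, were used to compare members with each other in all groups but 10 µM. Aligner, counting tool and genome build: not given in the sources used here. Left out were 18 further columns of sample values per gene and 30 per transcript. The 10 µM columns were assigned to their group only, because their numbers differ from those in the sample titles.

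Genes passing edgeR's filterByExpr (21477 of 32520; 5419 were at 0 everywhere) entered a single edgeR 4.0.16 model (TMM scaling, glmQLFit and glmQLFTest, under R 4.3.3) of the 5 group means over the 15 libraries. Tests were two-sided, p-values were adjusted by Benjamini-Hochberg over all tested genes, and the threshold was 0.05. SE is the absolute log2 fold change divided by the square root of F. Log2 CPM used a prior count of 2, whereas the fold changes came from the model fit with edgeR's default prior count. Library totals of 11956657 to 19978125 counts set the precision: members at 10 µM rest on 8 to 265 counts per library. The family sum was fitted with the members replaced by their sum. Scripts were tested on simulated counts.

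The members and gene lists were chosen with earlier results of these data known. Named genes were all members, from each list and the neighbours up to 4 genes of smallest p at 10 µM, the 10 genes most alike, and cyp1a, cyp3a65, nr1i2, pparaa, hnf4a and fabp10a. Same-numbered libraries deviated together from their group means at 0.1 µM (correlations with controls of 0.380 to 0.452) and 1 µM (0.190 to 0.336). At 5 µM the correlations were mixed (-0.137 to 0.346), and the highest was above those at 1 µM. For the counts within pairs, same-numbered libraries of the first 2 doses and the controls were treated as pairs. That pairing was assumed from the data, and the labels do not state it. Alternatives were DESeq2 1.42.0 size factors, DESeq2 as the tool, no filter, a stricter filter of 5 CPM in 3 libraries, only the 2 groups compared, sums of transcript counts, each library left out, and a replicate block. Protein and promoter sequences of the members were not analysed here.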

Additional observations from a re-analysis of the deposited data

How the results depend on the processing

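Over all alternatives run, the log2 fold changes of the members (615 values) moved by less than 1 SD between libraries. So did those of the family sum (63 values). Leaving out 1 of 3 libraries can hardly move a group mean by that much, so for those settings the bound shows no stability. No value that was past the threshold changed sign. Some that were not past it did: at 1 µM cyp2aa2 kept its sign in 9 of 12 settings and cyp2aa9 in 10 of 13. The log2 fold change of cyp2aa8 at 10 µM ran from -4.82 to -4.26 and that of the sum from -1.16 to -0.93 on leaving out 1 library. The stricter filter removed cyp2aa2, cyp2aa3 and cyp2aa11. Counts of genes past the threshold depended more on the setting. At 10 µM against control, 3098 genes passed, and 1047 to 2560 on leaving out 1 library, with the lowest number without the 10 µM library 2 (1362 without control 3, 1548 without the 10 µM library 4, 1707 without control 1). At 10 against 5 µM, 3309 passed, 1807 with only the 2 groups compared, and 1092 to 3464 on leaving out 1 library (1092 without the 10 µM library 2, 1575 without PFOS 5 µM replicate 3, 1821 without the 10 µM library 4). At 5 µM against control, 0 passed, 1 with no filter, 12 with DESeq2 and 1 with the replicate block, and 0 on leaving out any library. The replicate block gave 0 genes at 0.1 and 1 µM, as without it, and changed no call of a member. A fit with fewer libraries has less information, and beyond that the cause was not tested. Of 633 repeated values of the other named genes at 10 µM, 50 lost and 10 gained the threshold, and none that passed it changed direction. TMM and DESeq2 size factors moved the median of all genes by less than 0.1 on the log2 scale. At 10 µM cyp2aa9 rests on 8 to 15 counts per library, which limits the precision of its fold change.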

Other observations

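With cyp2aa8 alone as the profile, a choice made after seeing the data, 0 of the 10 genes most like the family profile were among the first 10. The highest Pearson correlations with cyp2aa8 over the 15 libraries were then 0.964 for prr33, 0.962 for klhl31, a kelch-like gene of skeletal muscle, 0.962 for tnxba, a tenascin gene, 0.959 for the keratin gene krtt1c19e and 0.957 for svilc. They were followed by col28a2a at 0.956, the keratin gene krt5 at 0.955, lypc at 0.950, jph2, a junctophilin gene of muscle, at 0.948 and sardh, which encodes sarcosine dehydrogenase, at 0.948. At 10 µM the log2 fold changes of these genes ran from -1.23 (SE 0.13) for col28a2a to -0.65 (SE 0.11) for svilc, against -4.54 for cyp2aa8. The correlations include this shared difference at 10 µM, and values with the group means removed are not given for these genes.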
